A study of Homo sapiens with 8 samples.

Results

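The 34 genes described here are the sterol regulatory element binding protein (SREBP) regulators and their classical targets in cholesterol and fatty acid synthesis. They were chosen by symbol from known function, out of 60332 genes in the expression table, and comprised 5 regulators, 8 genes of the mevalonate pathway, 11 genes of the sterol branch, 2 genes of sterol transport and 8 genes of fatty acid synthesis and desaturation. All 34 were found and all 34 had at least 1 FPKM (fragments per kilobase of transcript, corrected for library depth) in at least 2 libraries, which was required for testing and left 15372 genes in all. The rule that picks them uses no measured value, but it was written with earlier results of these data known.

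The cells were SK-N-MC, an established Ewing sarcoma line, and the 8 libraries formed 4 groups of 2 labelled replicates. Every group carried lentiviral dCas9-KRAB, a dead Cas9 joined to a transcriptional repressor, and had been selected with puromycin. Control cells carried the empty vector, and eKD1 and eKD2 cells carried guides, a different guide in each, beside the GGAA-microsatellite enhancer that drives LOXHD1, a gene that encodes a stereociliary protein. Control cells were analysed in normoxia and after 16 h in 1% oxygen, and eKD1 and eKD2 cells after hypoxia. No eKD library from normoxia was analysed here, so the effect of oxygen in eKD cells cannot be told apart from the effect of the guides. The cells were selected pools and each eKD line rests on 1 guide. In bulk RNA, fewer cells expressing a gene and less RNA per cell cannot be told apart.

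SREBP transcription factors are made as membrane proteins of the endoplasmic reticulum. SCAP escorts them to the Golgi for cleavage when sterols are scarce, and INSIG1 and INSIG2 hold SCAP back when sterols are plentiful. The released factor, encoded by SREBF2 mainly for cholesterol genes and by SREBF1 mainly for fatty acid genes, switches on the enzymes of the pathway and also INSIG1. Cholesterol synthesis consumes molecular oxygen at the steps of squalene epoxidation, lanosterol demethylation and sterol desaturation, and fatty acid desaturases consume it as well. INSIG2 is also known as a target of hypoxia-inducible factor (HIF).

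The libraries had the marks of the labelled cells and treatments. The targeted gene LOXHD1 (chromosome 18, 44056935 to 44237183, minus strand, GRCh37) was at 156 and 169 FPKM in control normoxia, 93.0 and 91.1 in control hypoxia, 17.3 and 15.0 in eKD1 and 11.7 and 11.8 in eKD2. CA9, a HIF target, lay between 56.9 and 82.8 FPKM in the 6 hypoxia libraries and was listed at 0 in normoxia. The 10 Ewing sarcoma markers were all above 10.8 FPKM in every library. Markers of other cell types were present too, with 4 of 5 at 1 FPKM or more in all 8 libraries. MYOD1 (muscle) stayed at or below 0.789 FPKM, and EPCAM (epithelium) lay between 3.39 and 5.80. COL1A1 and DCN (fibroblasts) lay between 34.1 and 74.3 and between 131 and 153. No value is given for PECAM1 (endothelium), which was also on the planned list. PTPRC (leukocytes) moved with the groups, at 22.5 and 23.8 FPKM in control normoxia, 4.87 and 5.39 in control hypoxia, 10.0 and 9.59 in eKD1 and 14.3 and 13.5 in eKD2, and its part in the results was not tested. Library depth, read from the size of the smallest steps in the values, ranged from 55.7% to 100% of that of control hypoxia replicate 1.

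Promoter sequences of the genes on which the results turn are shown first, because the hypoxia-raised and eKD2-lowered members can then be compared at their start sites. RefSeq (GRCh38.p14) gave windows from 250 bases before to 50 bases after the start site for 30 of the 34 genes, 43 windows in all. FDFT1, ACAT2, SQLE and FASN had no window. The first 3 sequences below belong to INSIG1, INSIG2 and STARD4, which rose in hypoxia. Capitals mark ACGTG on either strand, a form of the core of the hypoxia response element that HIF binds. Other forms of that core were not searched, so a window without ACGTG may still hold the element. At position -55 of INSIG1 the matches of the 2 strands overlap in a palindrome.
INSIG1 promoter, chr7:155297628-155297927, plus strand: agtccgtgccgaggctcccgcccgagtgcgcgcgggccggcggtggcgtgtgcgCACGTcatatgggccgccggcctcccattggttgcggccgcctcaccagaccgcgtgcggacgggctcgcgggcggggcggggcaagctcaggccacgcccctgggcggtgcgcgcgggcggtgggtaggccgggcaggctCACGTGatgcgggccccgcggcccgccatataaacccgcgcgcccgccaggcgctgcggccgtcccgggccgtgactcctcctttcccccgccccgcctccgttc
INSIG2 promoter, chr2:118088300-118088599, plus strand: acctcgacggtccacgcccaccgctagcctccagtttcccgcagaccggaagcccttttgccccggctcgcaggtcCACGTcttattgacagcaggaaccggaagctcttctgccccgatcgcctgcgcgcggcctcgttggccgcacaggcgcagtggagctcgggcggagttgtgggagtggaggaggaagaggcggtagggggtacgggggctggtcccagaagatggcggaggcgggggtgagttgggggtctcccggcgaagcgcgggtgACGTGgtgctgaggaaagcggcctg
STARD4 promoter, chr5:111512486-111512785, minus strand: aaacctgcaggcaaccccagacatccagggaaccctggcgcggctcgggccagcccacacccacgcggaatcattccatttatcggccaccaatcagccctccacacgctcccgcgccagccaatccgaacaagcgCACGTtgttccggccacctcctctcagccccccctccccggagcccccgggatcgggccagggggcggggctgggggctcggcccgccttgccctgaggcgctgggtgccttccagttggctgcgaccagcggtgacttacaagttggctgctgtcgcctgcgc
ACGTG was present in 3 of the 4 hypoxia-raised genes (INSIG1, INSIG2, STARD4) and in 1 of the 9 hypoxia-lowered genes with a window (DHCR7). It was also present in 2 of the 6 eKD2-lowered genes with a window (DHCR7, INSIG1). Of all 35116 RefSeq windows of this length, 21.4% held it. The 43 windows of the members held it in 27.9%. Counted by gene, it was present in 10 of the 30 members with a window and in 6790 of all 27305 genes.

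The next sequences belong to MSMO1 and HMGCS1, which were lower in eKD2 cells, and capitals mark CCAAT on either strand, the box bound by NF-Y, a known partner of SREBP. MSMO1 held 4 copies and HMGCS1 held 2 in the window shown.
MSMO1 promoter, chr4:165327419-165327718, plus strand: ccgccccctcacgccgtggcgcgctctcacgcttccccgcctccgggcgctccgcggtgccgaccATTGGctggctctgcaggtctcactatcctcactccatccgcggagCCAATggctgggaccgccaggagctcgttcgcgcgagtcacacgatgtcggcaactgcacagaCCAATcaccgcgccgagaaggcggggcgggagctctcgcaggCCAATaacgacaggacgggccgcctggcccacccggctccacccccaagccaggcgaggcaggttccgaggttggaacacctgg
HMGCS1 promoter, chr5:43313363-43313662, minus strand: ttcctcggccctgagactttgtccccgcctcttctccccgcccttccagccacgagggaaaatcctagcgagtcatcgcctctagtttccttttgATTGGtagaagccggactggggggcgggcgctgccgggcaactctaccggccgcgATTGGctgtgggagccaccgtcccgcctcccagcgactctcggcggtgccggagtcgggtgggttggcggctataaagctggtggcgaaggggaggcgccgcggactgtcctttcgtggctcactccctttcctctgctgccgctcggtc
CCAAT was present in all 6 eKD2-lowered genes with a window (INSIG1, HMGCS1, FDPS, MSMO1, EBP and DHCR7), but also in 7 of the 9 hypoxia-lowered genes. Of the 4 hypoxia-raised genes 3 held it as well (INSIG1, MSMO1, STARD4). Counted by gene, it was present in 22 of the 30 members with a window and in 10846 of all 27305 genes. Counted by window, it stood in 60.5% of the members' windows and in 34.6% of all windows. The last sequence is that of SREBF2, with TCACNCCAC, the classical sterol regulatory element, in capitals.
SREBF2 promoter, chr22:41832855-41833154, plus strand: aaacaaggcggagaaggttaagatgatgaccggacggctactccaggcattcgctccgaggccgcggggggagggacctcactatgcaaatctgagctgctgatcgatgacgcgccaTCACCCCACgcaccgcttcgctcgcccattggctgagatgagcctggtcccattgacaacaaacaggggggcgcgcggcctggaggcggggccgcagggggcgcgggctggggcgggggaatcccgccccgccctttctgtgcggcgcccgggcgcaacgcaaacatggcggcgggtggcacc
This longer form was found in 1 of the 43 windows and in 1.13% of all windows. The shorter CACNCCAC, which the longer form contains, was found in 7 of 43 windows (16.3%), in ACACA, IDI1, INSIG1, SC5D, SCD and SREBF2, against 5.87% of all windows. These are matches of letters in a short window, and no binding was measured.

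The first comparison asked how the pathway stood after 16 h of hypoxia in control cells. INSIG1 and INSIG2, the sterol sensors that retain SCAP, STARD4, which carries cholesterol between membranes, and MSMO1, a sterol methyl oxidase, rose, whereas 12 synthesis enzymes fell, the largest fall being that of ACAT2 to 41.7% of normoxia. Thus 16 of the 34 members passed the limma threshold of an adjusted p under 0.05 (47.1%), 4 higher and 12 lower. Among all tested genes 32.2% passed, 16.2% higher and 16.0% lower. The unadjusted p was under 0.05 for 20 members, beside 45.9% of all genes. Both hypoxia libraries lay above both normoxia libraries for 7 members and below for 23, beside 35.9% and 34.5% of all genes. The median log2 change of the members was -0.35, beside 0.01 over all tested genes. Changes are differences in log2(FPKM + 1), which understate those of low genes.

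**Figure D1:**
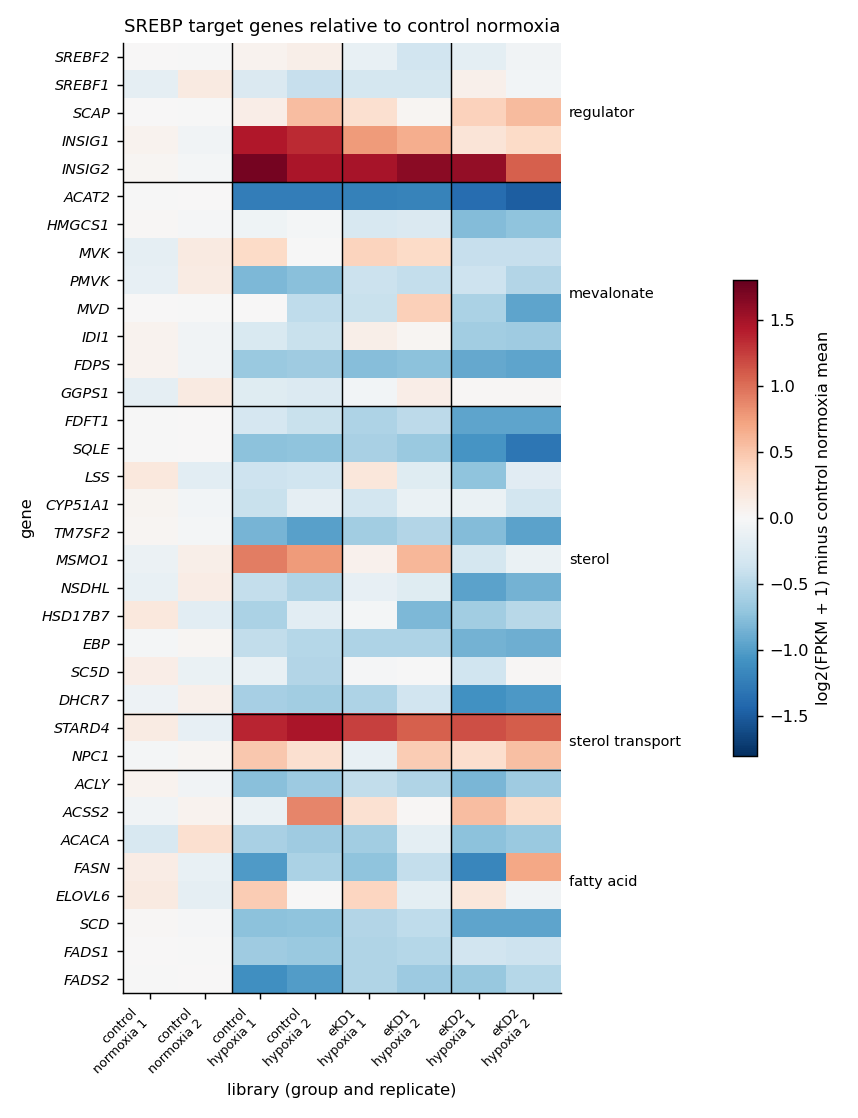
Each row is a gene and each column a library; colour gives log2(FPKM + 1) minus the mean of the 2 control normoxia libraries, and lines separate groups and gene roles. In the hypoxia columns INSIG1, INSIG2 and STARD4 stand above normoxia in all 6 libraries, while ACAT2, FDPS, SQLE, TM7SF2, SCD and FADS2 stand below it in all 6.

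Among the regulators, the genes of the 2 transcription factors and their escort did not pass in hypoxia. SREBF2 was at 102 and 101 FPKM in control normoxia and 106 and 109 in control hypoxia, a log2 change of 0.08 (SE 0.05, adjusted p = 0.276). SREBF1 was at 31.5 and 39.8 FPKM in normoxia and 29.3 and 26.4 in hypoxia (log2 change -0.34, SE 0.15, adjusted p = 0.162). SCAP was at 21.5 and 21.2 FPKM in normoxia and 23.3 and 32.0 in hypoxia. SREBF2 RNA in hypoxia was thus at 106% of its normoxia mean.

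INSIG1 (chromosome 7, 155089486 to 155101945, plus strand) was at 7.94 and 7.13 FPKM in control normoxia and 22.2 and 20.6 in control hypoxia. The groups were far apart and the duplicates close, and INSIG1 rose 2.84-fold (log2 change 1.39, SE 0.11, adjusted p = 0.00843). INSIG2 (chromosome 2, 118846028 to 118868573, plus strand) was at 8.31 and 7.80 FPKM in normoxia and 28.8 and 24.1 in hypoxia. Its rise was 3.28-fold (log2 change 1.59, SE 0.13, adjusted p = 0.00852), the largest among the members. Neither gene shares exonic bases with another gene in the annotation used.

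Sterol transport also stood higher. STARD4 (chromosome 5, 110831731 to 110848288, minus strand) was at 5.91 and 4.63 FPKM in control normoxia and 15.1 and 16.4 in control hypoxia. It rose 2.98-fold (log2 change 1.42, SE 0.16, adjusted p = 0.0116). NPC1, which exports cholesterol from lysosomes, was at 14.9 and 15.8 FPKM in normoxia and 21.8 and 19.0 in hypoxia, with no overlap but short of the threshold (log2 change 0.38, SE 0.11, adjusted p = 0.0762).

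In the mevalonate pathway 3 of 8 genes fell, 0 rose, and 7 of 8 changes were below 0. Of all tested genes 16.0% passed as lower and 16.2% as higher, with a median change of 0.01. ACAT2, which joins acetyl-CoA units at the start of the pathway, was at 161 and 163 FPKM in control normoxia and 67.6 and 67.8 in control hypoxia (log2 change -1.25, SE 0.05, adjusted p = 0.00618). PMVK, phosphomevalonate kinase, was at 69.5 and 85.0 FPKM in normoxia and 43.6 and 45.4 in hypoxia (log2 change -0.77, SE 0.12, adjusted p = 0.0207). FDPS, which makes farnesyl diphosphate and was the most abundant member in every group, was at 362 and 333 FPKM in normoxia and 217 and 223 in hypoxia (log2 change -0.66, SE 0.06, adjusted p = 0.00941). The entry enzyme HMGCS1 was nearly level, with 45.8 and 44.2 FPKM in normoxia and 42.6 and 44.1 in hypoxia (log2 change -0.05, SE 0.07, adjusted p = 0.584). The other 4 genes (MVK, MVD, IDI1 and GGPS1) did not pass, with log2 changes between -0.34 and 0.17. In the annotation 22.2% of the exonic bases of ACAT2 lie in other genes, of which TCP1 on the opposite strand shares the most, and 18.6% of those of FDPS, which also has 8 pseudogenes by name. The kit did not mark strand, so reads of such shared stretches cannot be assigned with certainty.

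In the sterol branch 5 of 11 genes fell and 1 rose, beside 16.0% and 16.2% of all genes. Of the 11 changes 10 were below 0. FDFT1, squalene synthase, was at 269.8 and 274 FPKM in control normoxia and 219.9 and 206 in control hypoxia (log2 change -0.35, SE 0.05, adjusted p = 0.0194). SQLE, squalene epoxidase, was at 109.6 and 109.9 FPKM in normoxia and 65.3 and 66.2 in hypoxia (log2 change -0.73, SE 0.05, adjusted p = 0.00809). TM7SF2, a sterol reductase, was at 45.7 and 43.7 FPKM in normoxia and 24.5 and 22.3 in hypoxia (log2 change -0.91, SE 0.09, adjusted p = 0.00982). The steps before and after the sterol ring is closed were thus both among those that fell. EBP, the sterol isomerase, was at 125 and 131 FPKM in normoxia and 94.0 and 89.7 in hypoxia (log2 change -0.47, SE 0.06, adjusted p = 0.0145). DHCR7, the reductase of the last step of one branch, was at 80.2 and 91.9 FPKM in normoxia and 56.5 and 55.1 in hypoxia (log2 change -0.61, SE 0.09, adjusted p = 0.0187).

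MSMO1 (chromosome 4, 166248819 to 166264316, plus strand) went the other way. It was at 27.6 and 32.1 FPKM in control normoxia and 57.3 and 51.4 in control hypoxia, and rose 1.82-fold (log2 change 0.84, SE 0.11, adjusted p = 0.0162). Its neighbours in the pathway stood lower in hypoxia. CYP51A1, the lanosterol demethylase that precedes it, was at 29.5 and 27.3 FPKM in normoxia and 21.3 and 25.3 in hypoxia (log2 change -0.28, SE 0.12, adjusted p = 0.163). NSDHL, which follows it, was at 26.5 and 31.8 FPKM in normoxia and 21.2 and 19.7 in hypoxia (log2 change -0.49, SE 0.12, adjusted p = 0.0556). The remaining sterol genes LSS, HSD17B7 and SC5D had log2 changes between -0.39 and -0.33 and did not pass. Of the exonic bases of CYP51A1, 74.1% lie in other annotated genes.

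In fatty acid synthesis and desaturation 4 of 8 genes fell and 0 rose, beside 16.0% and 16.2% of all genes. ACLY, ATP citrate lyase, was at 222 and 204 FPKM in control normoxia and 126 and 135 in control hypoxia (log2 change -0.70, SE 0.07, adjusted p = 0.0106). SCD, the delta-9 desaturase, was at 71.5 and 69.9 FPKM in normoxia and 42.0 and 42.6 in hypoxia (log2 change -0.73, SE 0.06, adjusted p = 0.00843). FADS1, a polyunsaturated fatty acid desaturase, was at 159 and 158 FPKM in normoxia and 101 and 99.0 in hypoxia (log2 change -0.66, SE 0.05, adjusted p = 0.00809). All 3 fatty acid desaturases among the members fell. FADS2, which works beside FADS1, was at 215 and 216 FPKM in normoxia and 99.7 and 107 in hypoxia (log2 change -1.05, SE 0.06, adjusted p = 0.00665). FASN, fatty acid synthase, was at 112 and 92.1 FPKM in normoxia and 49.4 and 67.8 in hypoxia, lower in both libraries but short of the threshold (log2 change -0.80, SE 0.20, adjusted p = 0.0516). ACACA, ACSS2 and ELOVL6 did not pass, with log2 changes between -0.61 and 0.38. ACSS2 differed 2.04-fold between the control hypoxia duplicates, and ELOVL6 lay between 0.46 and 1.27 FPKM throughout.

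**Figure D2:**
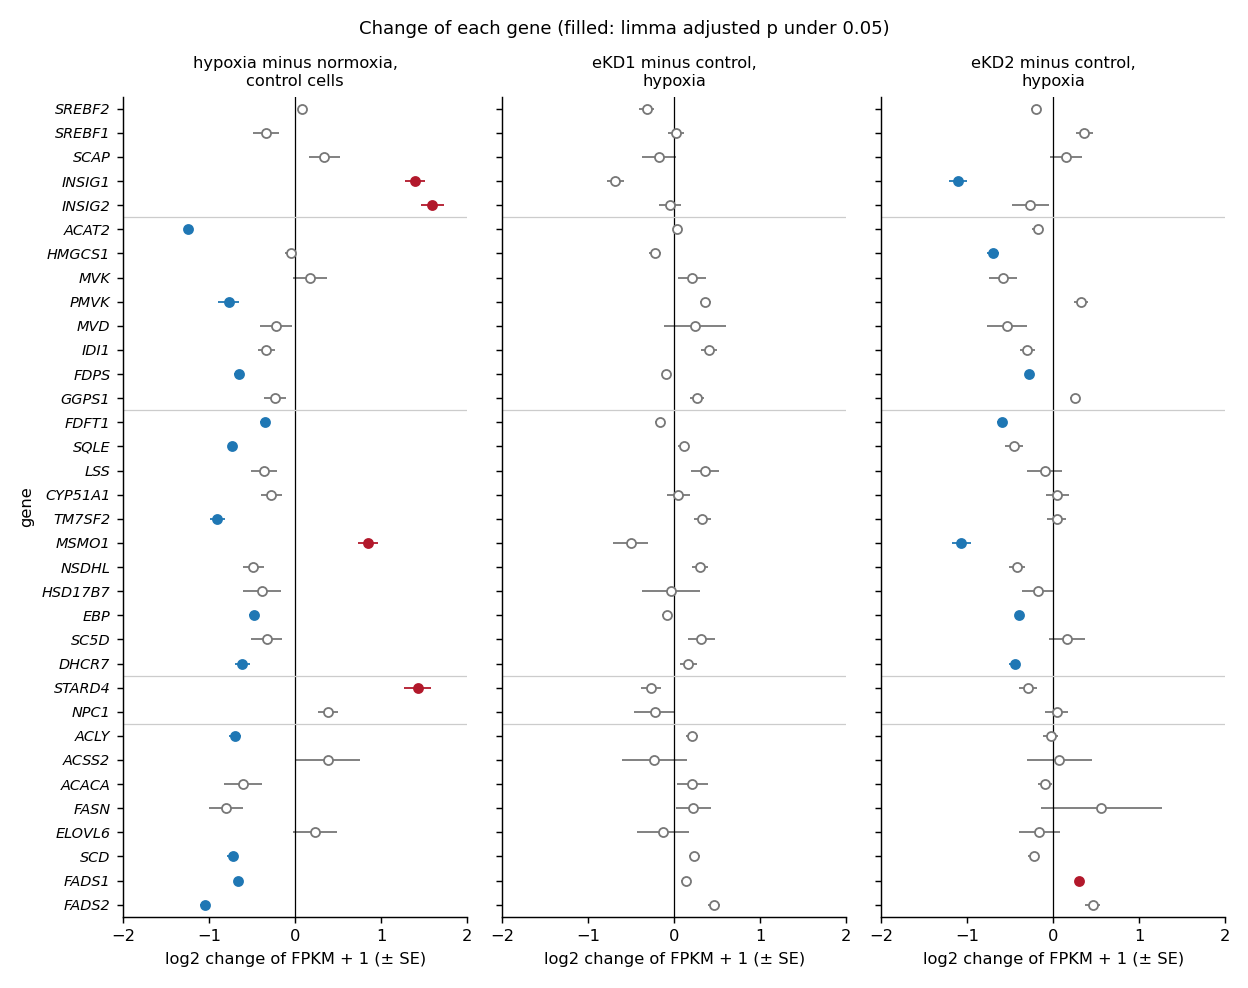
Points give the log2 change of each gene (FPKM + 1) with its SE in 3 comparisons of 2 against 2 libraries; filled points passed an adjusted p under 0.05, red higher and blue lower. In hypoxia 16 genes are filled, in eKD1 none and in eKD2 8, with INSIG1 and MSMO1 red in hypoxia and blue in eKD2.

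Enzymes that need molecular oxygen and those that do not stood lower, for the most part, in hypoxic control cells. Of the 7 oxygen-requiring enzymes (SQLE, CYP51A1, MSMO1, SC5D, SCD, FADS1, FADS2), 5 passed in hypoxia, 1 higher and 4 lower, with a median log2 change of -0.66. Of the 20 other enzymes, 8 passed, all lower, with a median of -0.43. The 7 regulators and transport genes had a median of 0.38, with 3 passing, all higher. Among all genes 32.2% passed, 16.2% higher and 16.0% lower, with a median log2 change of 0.01. The mean log2(FPKM + 1) of the oxygen-requiring class minus that of the other enzymes was 0.59 and 0.56 in the normoxia libraries and 0.60 and 0.56 in the control hypoxia libraries. These differences overlapped between the groups. Without MSMO1 in its class the difference was 0.82 and 0.74 in normoxia and 0.58 and 0.57 in hypoxia. That value without MSMO1 was chosen after its level had been seen, and no test was made over either class.

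**Figure D3:**
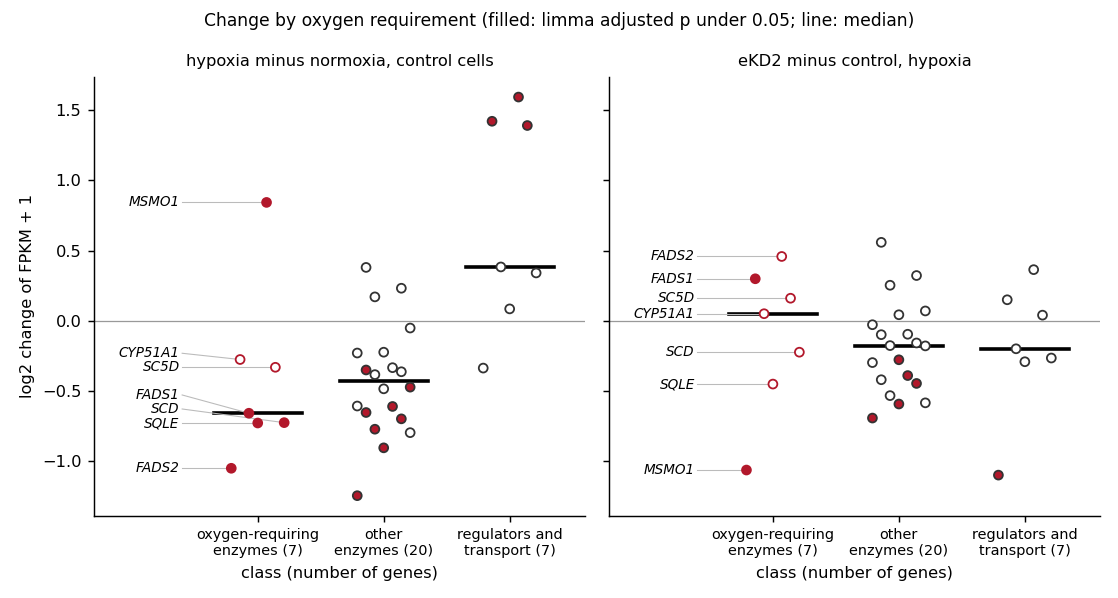
Points give the log2 change of each gene by class, filled where the adjusted p was under 0.05, with a line at the class median, for hypoxia in control cells (left) and for eKD2 in hypoxia (right). On the left MSMO1 alone of the oxygen-requiring enzymes lies above 0 and on the right it is the lowest of them.

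The hypoxia calls depended on having both duplicates in the 2-group fit. Without any of the 4 libraries (control normoxia replicate 1 or 2, control hypoxia replicate 1 or 2), limma called 0 of 34 members and 0 of all genes, with between 4934 and 6167 genes at an unadjusted p under 0.05. In a fit of all 8 libraries, which pools the spread, 18 members passed and 15 of the 16 calls were kept whichever of the 4 libraries was left out. MSMO1 was the exception, with adjusted p = 0.0738 without normoxia replicate 1, 0.0808 without hypoxia replicate 1 and 0.0514 without hypoxia replicate 2. Over all 15372 genes the fit with all 8 libraries called 5824, 2947 higher and 2877 lower. With column totals set equal, the median over all genes moved to -0.19 and the members' median to -0.58, with 4 members higher and 17 lower. Over all genes the calls were then 1567 higher and 3965 lower, beside 2486 and 2460 with the values as deposited.

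The next comparisons asked whether repression of the LOXHD1 enhancer went with a different level of these genes under hypoxia. Both eKD lines were compared with the same 2 control hypoxia libraries, which also serve the hypoxia comparison, so chance deviations of those libraries enter all 3 and the values are given side by side. In eKD1 cells 0 of the 34 members passed the limma threshold, and 11 had an unadjusted p under 0.05, 8 higher and 3 lower. Among all genes 0.0651% passed (10 genes) and 21.7% had an unadjusted p under 0.05. The fit of all 8 libraries called 2 members in eKD1, INSIG1 lower and FADS2 higher, and 0 when any of the 4 libraries was left out. Over all 15372 genes the fit with all 8 libraries called 761, 444 higher and 317 lower. Both eKD1 libraries lay above both control hypoxia libraries for 15 members and below for 8, beside 27.6% and 26.0% of all genes. The median log2 change of the members was 0.08.

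The 3 largest differences in eKD1 were those of INSIG1, MSMO1 and FADS2. INSIG1 was at 13.4 and 12.4 FPKM in eKD1 and 22.2 and 20.6 in control hypoxia, or 60.5% of control (log2 change -0.68, SE 0.10, adjusted p = 0.115). MSMO1 was at 31.6 and 45.6 FPKM in eKD1 and 57.3 and 51.4 in control hypoxia, with duplicates that differed 1.44-fold (log2 change -0.50, SE 0.20, adjusted p = 0.269). FADS2 was at 148 and 137 FPKM in eKD1 and 99.7 and 107 in control hypoxia (log2 change 0.46, SE 0.07, adjusted p = 0.116). For each of the 3 genes the groups did not overlap, yet none passed. SREBF2 was at 92.5 and 79.9 FPKM in eKD1 and 106 and 109 in control hypoxia (log2 change -0.32, SE 0.09, adjusted p = 0.182).

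In eKD2 cells, several genes along the cholesterol route stood lower. INSIG1 fell to 44.1% and MSMO1 to 46.9% of control hypoxia, and HMGCS1, FDPS, FDFT1, EBP and DHCR7 fell as well, whereas the desaturase FADS1 rose to 123%. In all, 8 of 34 members passed (23.5%), 1 higher and 7 lower. Among all genes 9.61% passed, 5.8% higher and 3.81% lower. The unadjusted p was under 0.05 for 19 members, beside 32.8% of all genes. The median log2 change of the members was -0.18, beside 0.05 over all tested genes. Both eKD2 libraries lay below both control hypoxia libraries for 17 members and above for 5, beside 26.4% and 35.8% of all genes.

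INSIG1 was at 9.05 and 9.80 FPKM in eKD2 and 22.2 and 20.6 in control hypoxia (log2 change -1.10, SE 0.10, adjusted p = 0.0289). The eKD2 values lay nearer to the 7.94 and 7.13 FPKM of control normoxia than to control hypoxia. INSIG2, by contrast, was at 26.0 and 18.1 FPKM in eKD2, a range that overlapped the 28.8 and 24.1 of control hypoxia (log2 change -0.27, SE 0.22, adjusted p = 0.448). STARD4 was at 13.0 and 12.3 FPKM in eKD2 and 15.1 and 16.4 in control hypoxia (log2 change -0.29, SE 0.10, adjusted p = 0.146). Of the 4 genes that rose in hypoxia, INSIG1 and MSMO1 therefore passed as lower in eKD2, and INSIG2 and STARD4 did not pass.

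**Figure D4:**
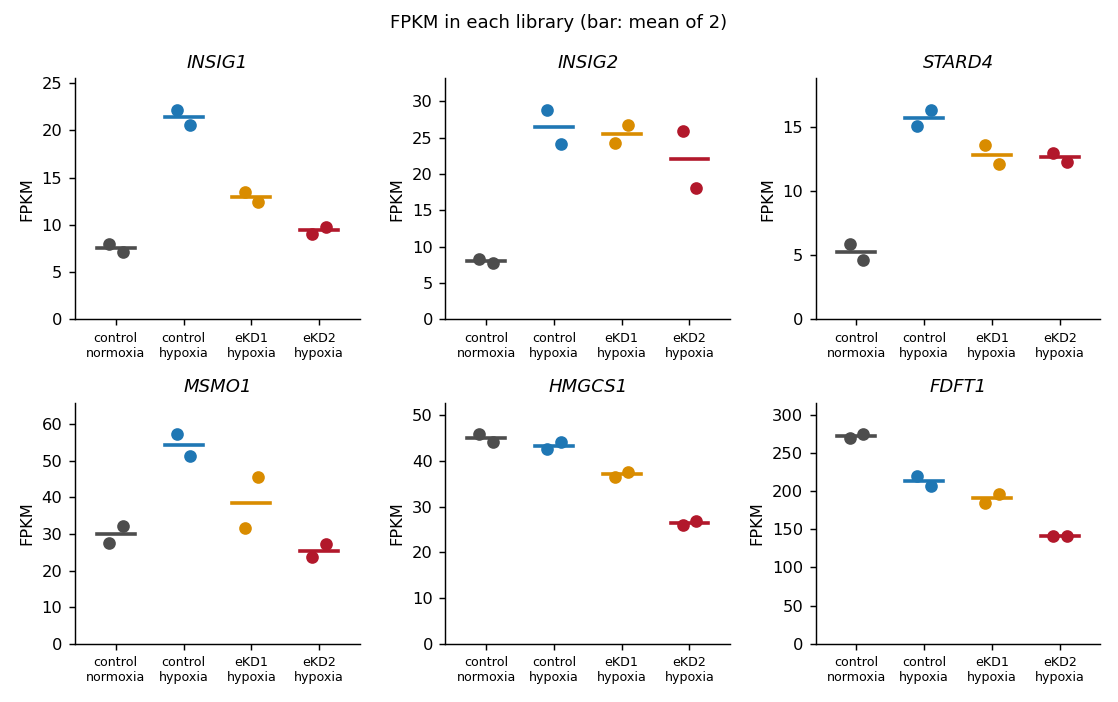
Points give FPKM in each library and bars the mean of 2, for the 4 genes that rose in hypoxia and for HMGCS1 and FDFT1, on axes that start at 0. INSIG1 and MSMO1 in eKD2 (9.05 to 9.80 and 23.6 to 27.3 FPKM) are down near control normoxia, INSIG2 and STARD4 are not, and HMGCS1 and FDFT1 are lowest in eKD2.

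In the mevalonate pathway HMGCS1 and FDPS fell in eKD2 and 6 genes did not pass. HMGCS1, which hypoxia had left level, was at 25.9 and 26.9 FPKM in eKD2 and 42.6 and 44.1 in control hypoxia (log2 change -0.69, SE 0.07, adjusted p = 0.0305). FDPS was at 182 and 179.9 FPKM in eKD2 and 217 and 223 in control hypoxia (log2 change -0.28, SE 0.04, adjusted p = 0.0431). PMVK and GGPS1 went the other way without passing, at 58.9 and 53.1 and at 53.6 and 54.0 FPKM in eKD2 against 43.6 and 45.4 and 45.5 and 44.5 in control hypoxia. In the annotation 37.7% of the exonic bases of HMGCS1 and 41.0% of those of GGPS1 lie in other genes.

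In the sterol branch 4 of 11 genes fell (FDFT1, MSMO1, EBP and DHCR7), beside 3.81% of all genes. The change was above 0 for 3 of the 11, none passing. These were CYP51A1 (mean 24.1 against 23.3 FPKM in control hypoxia), TM7SF2 (24.1 against 23.4) and SC5D (37.9 against 33.9). FDFT1 was at 141 in both eKD2 libraries and at 219.9 and 206 FPKM in control hypoxia (log2 change -0.59, SE 0.05, adjusted p = 0.0284). MSMO1 was at 23.6 and 27.3 FPKM in eKD2 and 57.3 and 51.4 in control hypoxia (log2 change -1.07, SE 0.11, adjusted p = 0.0306), which is just below the 27.6 and 32.1 of control normoxia. EBP was at 70.2 and 69.2 FPKM in eKD2 and 94.0 and 89.7 in control hypoxia (log2 change -0.39, SE 0.06, adjusted p = 0.0399), and 36.4% of its exonic bases lie in other genes. DHCR7 was at 39.7 and 41.6 FPKM in eKD2 and 56.5 and 55.1 in control hypoxia (log2 change -0.45, SE 0.06, adjusted p = 0.0397). Except for MSMO1, the sterol genes that passed in eKD2 were already lower in control hypoxia than in normoxia.

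Fatty acid genes did not share this direction. FADS1 was at 124 and 122 FPKM in eKD2 and 101 and 99.0 in control hypoxia (log2 change 0.30, SE 0.05, adjusted p = 0.0463). FADS2 was at 134 and 150.4 FPKM in eKD2 and 99.7 and 107 in control hypoxia (log2 change 0.46, SE 0.08, adjusted p = 0.0537). SCD was at 36.1 and 36.0 FPKM in eKD2 and 42.0 and 42.6 in control hypoxia (log2 change -0.23, SE 0.06, adjusted p = 0.102). The 3 desaturases thus did not stand on 1 side of control hypoxia. FASN was at 44.4 and 165 FPKM in the eKD2 libraries, a 3.71-fold gap between duplicates, the largest of any member in any group, and no direction can be read from it (log2 change 0.56, SE 0.70, adjusted p = 0.625; -0.38 without eKD2 replicate 2). FADS1 and FADS2 are neighbours on chromosome 11. In the annotation 5.57% of the exonic bases of FADS1 and 5.11% of those of FADS2 lie in other genes, and each is the largest sharer of the other.

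SREBF1 and SREBF2 lay on opposite sides in eKD2. SREBF1 was at 37.9 and 34.2 FPKM in eKD2 and 29.3 and 26.4 in control hypoxia (log2 change 0.36, SE 0.10, adjusted p = 0.102). SREBF2 was at 90.1 and 96.9 FPKM in eKD2 and 106 and 109 in control hypoxia (log2 change -0.20, SE 0.06, adjusted p = 0.120). Neither passed.

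By oxygen requirement, 2 of the 7 oxygen-requiring enzymes passed in eKD2, FADS1 higher and MSMO1 lower, with a median log2 change of 0.05. Of the 20 other enzymes 5 passed, all lower, with a median of -0.18. Among all genes 9.61% passed, 5.8% higher and 3.81% lower. The mean of the oxygen-requiring class minus that of the other enzymes was 0.68 and 0.63 in the eKD2 libraries, above the 0.60 and 0.56 of control hypoxia, and 0.52 and 0.62 in eKD1. Without MSMO1 the difference was 0.84 and 0.77 in eKD2 and 0.66 and 0.69 in eKD1, beside 0.58 and 0.57 in control hypoxia, so that both eKD lines then lay above control hypoxia in each library.

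All 8 eKD2 calls were lost in the limma fit without a variance trend, which called 0 members and 28 of all genes. They were also lost with the replicate number added to the fit, which called 0 of all genes. With no filter on low values 4 of the 8 were kept, beside 853 calls over all 27155 genes then tested. The 2-group fits without control hypoxia replicate 1 or 2, or eKD2 replicate 1 or 2, called 0 members and 0 of all genes by limma, with 3246 to 4016 genes at an unadjusted p under 0.05. In the fit of all 8 libraries 10 members passed, the same 8 with SQLE lower and FADS2 higher. That fit called 2601 of all 15372 genes, 1600 higher and 1001 lower. INSIG1, HMGCS1 and FDFT1 kept their calls whichever of the 4 libraries was left out, and EBP lost its call only without control hypoxia replicate 1 (adjusted p = 0.0626). MSMO1 (highest adjusted p = 0.0889), FDPS (0.113), DHCR7 (0.140) and FADS1 (0.0760) lost theirs without each of the 4. With columns rescaled by median of ratios 0 members were higher and 7 lower, FADS1 no longer passing, and with equal column totals 3 were higher and 5 lower, EBP and FDPS no longer passing and FADS2 and GGPS1 passing as higher. Over all genes the calls were 891 higher and 586 lower as deposited, 755 and 837 by median of ratios and 1469 and 427 with equal totals.

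The direct comparison of the guides asked whether the lines differed from each other under hypoxia. The log2 difference of eKD2 minus eKD1 was below 0 for 27 of 34 members, including all 8 mevalonate and all 11 sterol genes. Some of these differences were close to 0, the nearest being -0.01 in the mevalonate pathway and -0.0009 in the sterol branch. The median over the members was -0.22, beside 0.05 over all tested genes. By limma 0 members passed, as did 0.403% of all genes, and 14 members had an unadjusted p under 0.05, 2 higher and 12 lower in eKD2, beside 23.6% of all genes. Both eKD2 libraries lay above both eKD1 libraries for 4 members and below for 17, beside 31.9% and 23.3% of all genes. They lay below for 6 of the 8 mevalonate and 7 of the 11 sterol genes. The fit of all 8 libraries called 9 members, all lower in eKD2 (IDI1, FDFT1, SCD, SQLE, MVK, HMGCS1, EBP, NSDHL, DHCR7), and between 0 and 2 members when 1 of the 4 eKD libraries was left out. Over all 15372 genes the fit with all 8 libraries called 1391, 808 higher and 583 lower in eKD2. With protein-coding genes alone tested, 4 members passed (IDI1, FDFT1, MVK, NSDHL). Of all 12248 genes in that setting 549 passed, 333 higher and 216 lower.

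The largest differences between the guides were those of MVK, MVD and NSDHL. MVK, mevalonate kinase, was at 6.89 and 6.91 FPKM in eKD2 and 13.0 and 12.4 in eKD1 (log2 difference -0.79, SE 0.11, adjusted p = 0.0858). MVD, the decarboxylase of the same pathway, was at 15.8 and 12.0 FPKM in eKD2 and 17.9 and 32.8 in eKD1, with duplicates that differed 1.84-fold in eKD1 (log2 difference -0.77, SE 0.35, adjusted p = 0.288). NSDHL was at 14.5 and 15.6 FPKM in eKD2 and 26.2 and 24.7 in eKD1 (log2 difference -0.72, SE 0.10, adjusted p = 0.0830). The smallest adjusted p was that of IDI1, the isopentenyl diphosphate isomerase, at 17.9 and 17.7 FPKM in eKD2 and 30.4 and 28.9 in eKD1 (log2 difference -0.70, SE 0.08, adjusted p = 0.0779).

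In 7 members (ACAT2, MVK, IDI1, SQLE, NSDHL, DHCR7 and SCD) both eKD1 libraries lay above and both eKD2 libraries below both control hypoxia libraries, a pattern of 3.2% of all tested genes. The reverse pattern was seen in 0 members and in 4.3% of all genes.

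**Figure D5:**
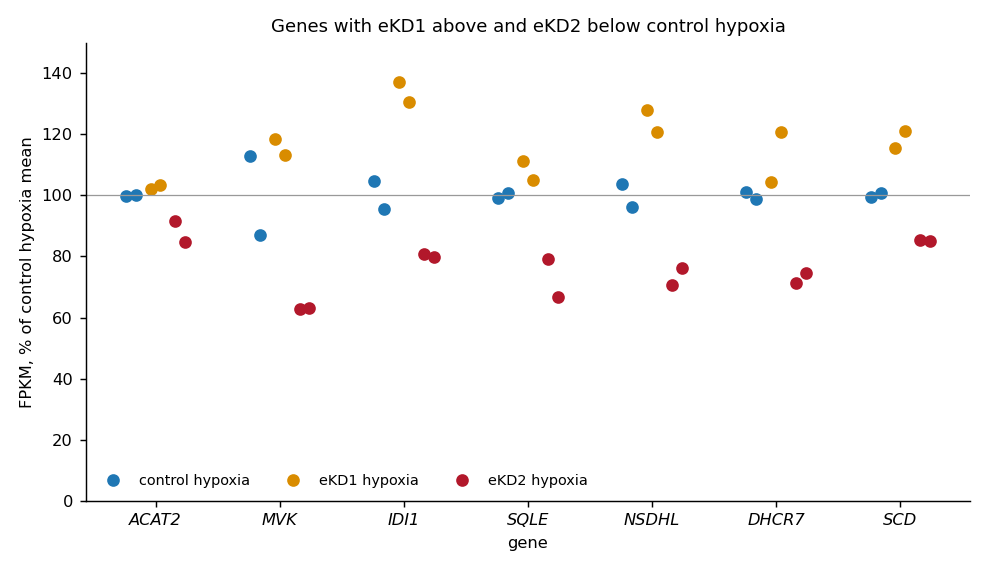
Points give FPKM as a percentage of the control hypoxia mean in each hypoxia library for 7 genes, on an axis that starts at 0. For all 7 both eKD1 libraries lie above and both eKD2 libraries below both control hypoxia libraries.

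Other genes of the pathway, taken from a list of 38 symbols, were set beside the members: 37 were found and 35 tested. In hypoxia 12 passed, 6 higher and 6 lower (34.3%, beside 32.2% of all genes), with a median log2 change of -0.03. Higher were the lipoprotein receptor VLDLR (10.3 against 2.73 FPKM, group means), NPC2, which hands cholesterol to NPC1 (121 against 67.0), MYLIP, a ligase that degrades lipoprotein receptors (23.0 against 14.6), ACSL1, SLC25A1 and CYB5R3. Lower were MMAB, which shares a promoter region with MVK (34.8 against 70.7 FPKM), PDSS1, ERG28, ME1, ELOVL5 and CYB5B. In eKD1 0 passed by limma, beside 0.0651% of all genes, and 4 had an unadjusted p under 0.05, beside 21.7%. In eKD2 1 of the 35 passed (2.86%, beside 9.61% of all genes). It was VLDLR, at 22.9 and 23.4 FPKM against 11.4 and 9.24 in control hypoxia (log2 change 1.10, SE 0.13, adjusted p = 0.0343).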

How the data were processed

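RNA of 8 SK-N-MC libraries was measured by sequencing. Per the labels and the study's methods, poly-A libraries that do not mark strand were read from one end, and the authors used STAR for alignment (GRCh37) and cuffnorm for gene values. The deposited values are FPKM, so depth is unknown except as a relative share, and no intervals or detection floors were computed. Cufflinks shares out reads between overlapping genes. The tests of the study itself used counts. FPKM are not counts, so log2(FPKM + 1) was fitted with limma 3.58.1 in R 4.3.3 (eBayes with a variance trend), for each 2 against 2 comparison on its own. The 15372 genes reaching 1 FPKM in 2 or more of the 8 libraries were tested, p-values are two-sided and adjusted by Benjamini-Hochberg over all of them, and a call is an adjusted p under 0.05. The study calls the libraries biological duplicates, and whether they came from separate transductions is not stated in the sources used here. The script was tested on simulated data. All 34 members are named, and those called and the 3 with the largest change in each comparison are given in full. Members and lists were chosen with earlier results of these data known. Positions are from GENCODE version 44 on GRCh37 and promoters from RefSeq by gene symbol. Some pathway genes are not analysed here.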

Additional observations from a re-analysis of the deposited data

Results flagged for a closer look

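In 7 genes both eKD1 libraries lay above and both eKD2 libraries below both control hypoxia libraries, which is why they are given here. The log2 difference of eKD2 minus eKD1 was -0.70 for IDI1, -0.46 for SCD, -0.56 for SQLE, -0.79 for MVK, -0.22 for ACAT2, -0.72 for NSDHL and -0.61 for DHCR7. Tested directly with limma, the differences had adjusted p-values from 0.0779 to 0.187, so none passed. For ACAT2 the eKD1 values of 69.1 and 69.9 FPKM lay just above the 67.6 and 67.8 of control hypoxia, and the eKD2 values were 61.9 and 57.4.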

How the results depend on the processing

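Each comparison was refitted under 9 alternatives and without each library. In hypoxia (16 members called) the other settings gave between 12 and 21 calls. In eKD2 (8 called) the count was 4 with no filter on low values and 0 without the variance trend. In eKD1 (0 called) it was 2 in the shared fit of 8 libraries, beside 761 of all 15372 genes. For eKD2 against eKD1 (0 called) it was 9 in the shared fit, beside 1391 of all 15372 genes. With protein-coding genes only it was 4, beside 549 of all 12248 genes. Without any one library the 2-group fits called 0 members in all 4 comparisons. In the shared fit, leaving out 1 library, which was added after the data were seen, gave 15 to 19 calls in hypoxia, 0 throughout in eKD1, 3 to 7 in eKD2 and 0 to 2 in eKD2 against eKD1; an arm then has 1 library, which is assumed to vary like the others. The median change of the oxygen-requiring enzymes minus that of the other enzymes in eKD2 moved from 0.23 to 0.29 with a pseudocount of 0.1. Equal column totals moved the hypoxia median over all genes by over 0.1 (to -0.19), where SREBF2 changed from 0.08 to -0.16, and in eKD2 to 0.14. FASN in eKD2 was 0.56, and ranged from -0.38 without eKD2 replicate 2 to 1.49 without eKD2 replicate 1. The cause of these shifts was not tested.

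The replicate numbers are shared by the groups, but nothing says they mark a batch, and correlations of replicate 1 deviations between groups were between -0.06 and 0.13. With a replicate block, 15 members were called in hypoxia, 0 in eKD1, 0 in eKD2 and 0 for eKD2 against eKD1, in fits with fewer residual degrees of freedom.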
